A study of Mus musculus with 12 samples.

Results

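Interferon-gamma receptor signalling was examined through 9 genes in 12 mouse melanoma tumors: the ligand gene Ifng, the receptor chain genes Ifngr1 and Ifngr2, the kinase genes Jak1 and Jak2, the transcription factor gene Irf1, and the feedback genes Socs1, Socs3 and Ptpn2. The genes were taken by name for their place in the pathway, from the 55487 Ensembl genes of the count table, and all 9 passed the filter on low counts that left 16225 genes for testing. The 6 wild-type tumors had the genotype BrafCA;Cdkn2af/f and the 6 Arf6-null tumors had BrafCA;Cdkn2af/f;Arf6f/f, so the Braf and Cdkn2a alleles were common to both groups and the floxed Arf6 allele set them apart. The Cre that acts on these alleles, the cells it reaches, the strain, the age and the sex were not given in the sources used here. A bulk tumor also holds host cells, which can keep Arf6. The comparison asks how the loss of Arf6, a small GTPase of membrane traffic, alters expression in the tumor, here expression of the interferon-gamma pathway.

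Interferon-gamma is a cytokine made mainly by activated T cells and natural killer cells. It binds a receptor of Ifngr1 and Ifngr2 chains, whose associated kinases Jak1 and Jak2 phosphorylate it. The signal reaches gamma-activated sites in the genome and induces Irf1, which carries the response to further genes, while Socs1, Socs3 and the phosphatase Ptpn2 limit the signal. In tumors the pathway is known for raising antigen presentation, lymphocyte-attracting chemokines and the checkpoint ligand Cd274.

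Replicate numbers used here follow the order of the library numbers within each genotype, are not in the labels and link no tumors across genotypes. Total counts spanned 22211738 to 30326419 for wild type and 21007954 to 45688253 for Arf6-null. Levels are CPM, counts divided by the scaled library size and brought to a common total. Arf6, the targeted gene, spanned 84.2 to 147 CPM in the wild-type group and 12.2 to 22.5 CPM in the Arf6-null group, and was called lower (log2 fold change -2.60, SE 0.18, adjusted p = 0.000101 by edgeR). Of 10 melanocyte markers 3 had enough counts to test and Mlana had no count in any library. The 10 summed to 22.6 to 52.9 CPM per wild-type tumor and 11.2 to 35.9 CPM per Arf6-null tumor, edgeR called none, and DESeq2 and limma-voom called Kit lower (unadjusted edgeR p under 0.05 for 1). Skeletal muscle markers stood apart in wild-type replicates 3, 4 and 5, with scores (mean log2 CPM) of 6.87, 6.05 and 6.80 against at most 3.38 in the other 9 tumors. All 19 muscle genes had negative log2 fold changes (median -4.70). Each was also at an unadjusted edgeR p under 0.05, against 23.4% of all tested genes. edgeR called 1 of them, Pvalb, lower, DESeq2 called all 19 lower and limma-voom called 0. edgeR called none of 10 fibroblast and 10 endothelial markers, with 4 and 5 at an unadjusted p under 0.05. Their median log2 fold changes were -1.03 and -0.65, with 1 and 2 calls by DESeq2 and 0 and 1 by limma-voom. For comparison with each marker list here, 1.15% (edgeR), 11.8% (DESeq2) and 6.14% (limma-voom) of the genes with an adjusted p were called. Y-linked genes were near 0 in 4 tumors, of which 3 were wild type (replicates 3, 5 and 6) and 1 was Arf6-null (replicate 6). Their Y-linked scores were -3.96 to -2.74. Wild-type replicate 1 lay between, at 2.36, and the remaining tumors had 4.51 to 5.81. Library numbers, 1 to 6 for wild type and 19 to 24 for Arf6-null, ran with the genotype, and a preparation batch along these numbers cannot be told apart from it. Tumor numbers in the labels parted the genotypes except for 1 tumor. They were 5526 to 7657 in wild-type replicates 1, 2, 3, 4 and 6, and 19836 to 20570 in Arf6-null tumors. Wild-type replicate 5 had number 20681, and had the highest Irf1 level and response gene score of the wild-type tumors (below). Wild-type replicate 6, next highest in both, had number 5588. A link of tumor numbers with expression was not tested.

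The upstream sequences of Ifng, Irf1 and Socs1 are shown as those of the ligand, the response factor and a feedback gene whose levels are related to each other below. Each is the stretch of 250 bases before a RefSeq start site on the gene's own strand (GRCm38.p6). Capitals mark matches to TTCNNNGAA, the core of a gamma-activated site, which reads the same on both strands, and on either strand to a double GAAA, 2 copies of GAAA with 2 bases of any kind between them, a repeat bound by interferon regulatory factors.
Ifng, chr10:118440796-118441045, plus strand: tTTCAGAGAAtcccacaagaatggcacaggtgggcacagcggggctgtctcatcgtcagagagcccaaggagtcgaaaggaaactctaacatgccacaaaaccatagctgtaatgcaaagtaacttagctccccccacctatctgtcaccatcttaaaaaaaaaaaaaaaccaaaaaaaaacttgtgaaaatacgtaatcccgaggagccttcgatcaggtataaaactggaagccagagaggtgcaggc
Irf1, chr11:53769764-53770013, plus strand: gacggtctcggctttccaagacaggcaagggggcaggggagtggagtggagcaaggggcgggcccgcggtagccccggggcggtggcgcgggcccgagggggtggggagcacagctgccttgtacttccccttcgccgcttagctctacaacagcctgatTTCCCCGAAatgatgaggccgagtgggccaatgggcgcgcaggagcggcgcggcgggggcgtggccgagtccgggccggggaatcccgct
Socs1, chr16:10785537-10785786, minus strand: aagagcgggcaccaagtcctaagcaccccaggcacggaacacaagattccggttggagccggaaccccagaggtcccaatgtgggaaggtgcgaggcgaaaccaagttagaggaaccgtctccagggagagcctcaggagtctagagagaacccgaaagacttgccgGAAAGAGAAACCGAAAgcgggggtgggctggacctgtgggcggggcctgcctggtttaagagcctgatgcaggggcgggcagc
The Irf1 stretch held 1 match to TTCNNNGAA, whose first base lies 90 bases before the start site, and the Ifng stretch held 1, at 249 bases. Irf1 has a further RefSeq start site, whose stretch (chr11:53770223-53770472) overlaps exons of the gene and held no match to either motif. The Socs3 stretch, which overlaps an exon, held 1 match to TTCNNNGAA at 154 bases. Those of Jak1, Ifngr1, Ifngr2 and Jak2 held neither motif, and that of Jak1 overlaps exons of the gene. For Socs3, Ifngr2 and Jak2 the bases just after the RefSeq start site were not found in a GENCODE transcript of the gene. The Socs1 stretch held no match to TTCNNNGAA and had 2 overlapping matches to the double GAAA. Over 32851 upstream stretches of the same length in the table, 7.02% held TTCNNNGAA and 2.98% held the double GAAA. These matches describe the letters only, and binding was not measured.

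Of the 9 genes none was called higher or lower in Arf6-null tumors by the edgeR quasi-likelihood test, which called 1.15% of the 16225 tested genes at an adjusted p under 0.05 (0.586% higher and 0.561% lower). None of the 9 had an unadjusted p under 0.05 either, against 23.4% of all tested genes. DESeq2 and limma-voom with sample quality weights also called 0 of the 9, where they called 11.8% and 6.14% of the genes with an adjusted p. The CPM ranges of the genotypes overlapped for all 9 genes, and 2.36% of the tested genes had ranges that did not. Estimates were positive for Ifng, Socs3, Irf1, Socs1, Ptpn2 and Jak2 and negative for Ifngr1, Jak1 and Ifngr2, with a median log2 fold change of 0.23 against -0.027 for all tested genes. A lower level in bulk tissue can stem from fewer cells of a type or from less RNA per cell, which cannot be told apart here.

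**Figure D1:**
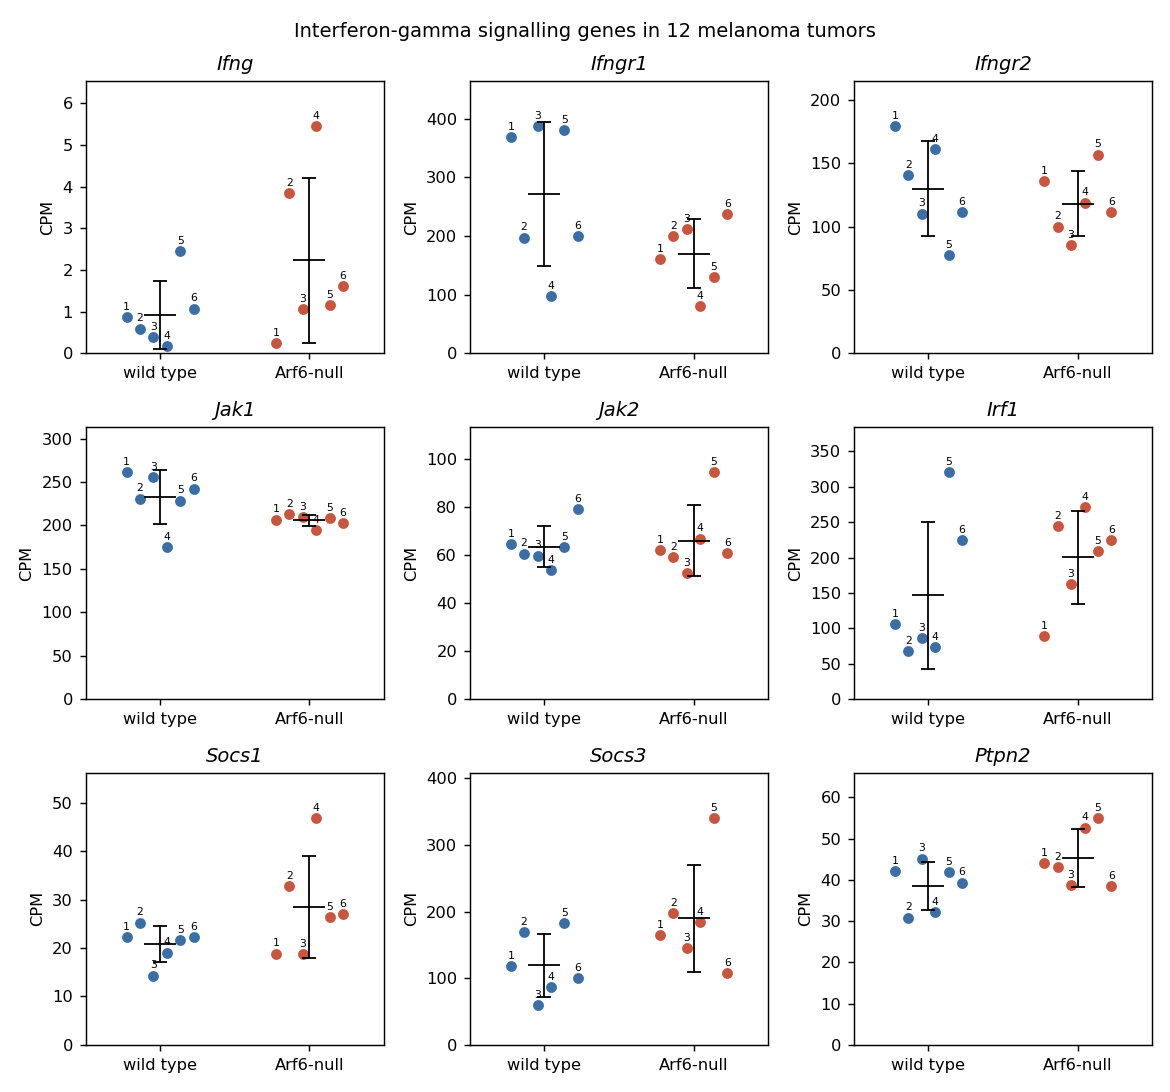
CPM (vertical axis, linear from 0) of each of the 9 genes in the 6 wild-type (blue) and 6 Arf6-null (red) tumors, with replicate numbers over the points and the mean ± SD as black bars. The groups overlap in every panel, Jak1 is nearly level over the Arf6-null tumors, and Irf1 is high in wild-type replicates 5 and 6 and low in Arf6-null replicate 1.

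The ligand gene Ifng (chromosome 10, 118441046 to 118445892, GRCm38) was scarce. Its level in wild-type tumors was 0.164 CPM at the lowest, 0.735 at the median and 2.46 at the highest, and in Arf6-null tumors 0.251, 1.39 and 5.45 CPM. These levels rest on 5 to 66 counts per wild-type and 5 to 165 counts per Arf6-null library. Arf6-null replicate 4, at 5.45 CPM (exact Poisson 95% interval 4.65 to 6.35), and replicate 2, at 3.85 CPM (3.27 to 4.49), lay above every wild-type tumor, while Arf6-null replicate 1, at 0.251 CPM (0.0816 to 0.586), was among the lowest of the 12. The intervals cover counting error only, and the spread among Arf6-null tumors was wider than that error. The wild-type mean was 0.926 ± 0.821 CPM and the Arf6-null mean 2.23 ± 1.99 CPM (SD, n = 6 per group), with a log2 fold change of 1.27 (SE 0.72, 95% interval -0.30 to 2.84, edgeR adjusted p = 0.31). The estimate was 0.79 without Arf6-null replicate 4 and 1.85 without wild-type replicate 5, and was not called in either case (edgeR adjusted p = 0.585 and 0.146).

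Genes of the cells that make interferon-gamma, and of the signals that induce it, gave no call. Over all genes with an adjusted p, edgeR, DESeq2 and limma-voom called 1.15%, 11.8% and 6.14%. The 17 tested T cell markers had a median log2 fold change of -0.29, with 4 positive and 13 negative. The 11 tested NK and cytotoxic markers, of 12, had a median of -0.21, with 2 positive and 9 negative. Their summed levels were 57.6 to 289 CPM (T cell) and 54.4 to 317 CPM (NK and cytotoxic) in wild-type tumors, and 54.8 to 269 CPM and 75.6 to 245 CPM in Arf6-null tumors, with no marker at 0 throughout. In neither list did edgeR, DESeq2 or limma-voom call a member. An unadjusted edgeR p under 0.05 was found for 0 T cell and 1 NK and cytotoxic markers, against 23.4% of all tested genes. That 1 was Gzma, a granule protease, whose wild-type mean was 16.2 ± 17.2 CPM and Arf6-null mean 5.11 ± 3.20 CPM (edgeR adjusted p = 0.195). The T cell receptor constant gene Trbc2 was at 23.5 ± 9.01 and 40.2 ± 20.4 CPM, and Cd4, the helper T cell co-receptor, at 34.8 ± 26.7 and 12.8 ± 15.3 CPM (edgeR adjusted p = 0.278 and 0.289). Next by p in these lists were the T cell costimulatory receptor gene Cd28 (log2 fold change -1.003) and the NK receptor genes Klrb1c (-0.61) and Klre1 (-0.79), with edgeR adjusted p = 0.372, 0.354 and 0.37. Of 21 genes for induction of interferon-gamma, 17 were tested, with 7 positive and 10 negative log2 fold changes, a median of -0.15 and none called by any of these tools or at an unadjusted edgeR p under 0.05. Il18, a cytokine that acts with IL-12 to induce Ifng, was at 11.1 ± 4.95 and 15.9 ± 4.64 CPM (edgeR adjusted p = 0.301). The IL-27 receptor gene Il27ra was at 5.63 ± 2.46 and 3.87 ± 1.78 CPM, and Il18rap, a chain of the IL-18 receptor, at 18.5 ± 10.6 and 25.1 ± 12.6 CPM (edgeR adjusted p = 0.363 and 0.551).

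The receptor chain gene Ifngr1 (chromosome 10, 19591949 to 19610229) encodes the ligand-binding chain that docks Jak1. It ranged from 97.2 CPM through a median of 284 to 387 CPM in wild-type tumors, and from 80.6 through 180.02 to 238 CPM in Arf6-null tumors. Wild-type replicates 1, 3 and 5 lay at 369, 387 and 381 CPM, above every Arf6-null tumor, and wild-type replicates 2, 4 and 6 lay within the Arf6-null range. All 6 Arf6-null tumors were below the wild-type median. Ifngr1 had a log2 fold change of -0.68 (SE 0.35, 95% interval -1.43 to 0.08, edgeR adjusted p = 0.262), and with the Y-linked score as a covariate it was -0.33. Of 15 macrophage and monocyte markers, a cell type that carries the receptor, 14 had a negative log2 fold change (median -0.30). None was called by edgeR, DESeq2 or limma-voom, which called 1.15%, 11.8% and 6.14% of all genes with an adjusted p. An unadjusted edgeR p under 0.05 was found for 1, against 23.4% of all tested genes. The summed level of the markers spanned 1645 to 5006 CPM over wild-type and 2095 to 3309 CPM over Arf6-null tumors. Against the score of these markers Ifngr1 had r = 0.072 and rho = -0.029 in wild-type tumors (exact permutation p = 0.849 and 1.0, adjusted over 16 relations 0.849 and 1.0, n = 6; r = 0.18 without replicates 3 and 4). In Arf6-null tumors r was 0.65 and rho 0.83 (exact permutation p = 0.163 and 0.0583, adjusted 0.325 and 0.133, n = 6), and r was 0.96 without replicates 4 and 5. The part of macrophage content in the Ifngr1 values was not tested further.

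Ifngr2 (chromosome 16, 91547072 to 91565623) encodes the signal-transducing chain that binds Jak2. It lay between 77.5 and 179 CPM in wild-type tumors, with a median of 126, and between 85.4 and 157 CPM in Arf6-null tumors, with a median of 115. The Arf6-null values fell wholly inside the wild-type range. Its log2 fold change was -0.14 (SE 0.20, 95% interval -0.58 to 0.31, edgeR adjusted p = 0.717). It was -0.36 with the skeletal muscle score as a covariate, -0.28 with the Y-linked score and -0.025 without wild-type replicate 1, with no call in these fits. Per kilobase of exon, the ratio of Ifngr1 to Ifngr2 ran from 0.798 to 6.51 in wild-type tumors (median 2.55) and from 0.896 to 3.29 in Arf6-null tumors (median 2.10). The lowest ratios were in wild-type replicate 4 and Arf6-null replicate 4, tumors that no label links. The highest were in wild-type replicate 5 and Arf6-null replicate 3, and the genotypes overlapped. Across the 12 tumors, with the genotype means subtracted, the receptor chain genes had r = -0.45, a description that was not tested. Wild-type replicate 1 was high in both, with Ifngr1 at 369 CPM and Ifngr2 at 179 CPM.

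Of the kinase genes, Jak1 (chromosome 4, 101152367 to 101265282) serves many cytokine receptors beside the interferon receptors. It ranged from 175 through a median of 237 to 261 CPM in wild-type tumors and from 195 through 208 to 213 CPM in Arf6-null tumors. Wild-type replicate 4 was the lowest of all 12 tumors, and the other 5 wild-type tumors lay above all Arf6-null tumors. The log2 fold change was -0.17 (SE 0.10, 95% interval -0.38 to 0.03, edgeR adjusted p = 0.294), and without wild-type replicate 4 it was -0.24 (edgeR adjusted p = 0.125). The spread over the Arf6-null tumors was small: the SD of log2 CPM was 0.045, and 0.16% of the tested genes had a smaller one in these tumors. In wild-type tumors the SD of Jak1 was 0.21 and 23.4% of the genes had a smaller one; the difference in spread was noticed after seeing the values and was not tested.

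Jak2 (chromosome 19, 29251828 to 29313080), the kinase of the Ifngr2 chain, ranged from 53.9 through 61.97 to 79.2 CPM in wild-type and from 52.4 through 61.4 to 94.7 CPM in Arf6-null tumors. The medians lay close together, and Arf6-null replicate 5 stood above the rest. The log2 fold change was 0.055 (SE 0.14, 95% interval -0.25 to 0.36, edgeR adjusted p = 0.848), an interval that corresponds to folds of 0.839 to 1.28. Its sign turned without Arf6-null replicate 5, to -0.075, and without the 3 muscle-rich wild-type tumors, to -0.034.

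Irf1 (chromosome 11, 53770014 to 53778374), the response factor whose upstream stretch carries the TTCNNNGAA match above, differed more within genotypes than between them. It ranged from 67.5 through a median of 96.2 to 320.5 CPM in wild-type tumors and from 88.7 through 217 to 271 CPM in Arf6-null tumors. Wild-type replicates 5 and 6, at 320.5 and 225 CPM, lay apart from the other 4 wild-type tumors, which were at 67.5 to 106 CPM. Arf6-null replicate 1, at 88.7 CPM, lay among those 4, and the other 5 Arf6-null tumors were at 162 to 271 CPM. The means were 146 ± 103 and 200.1 ± 65.7 CPM (SD, n = 6 each), with a log2 fold change of 0.45 (SE 0.41, 95% interval -0.45 to 1.35, edgeR adjusted p = 0.543). The value was 1.11 with the skeletal muscle score and 1.05 with the Y-linked score as a covariate, 0.84 without wild-type replicate 5 and 0.30 without wild-type replicate 2. None of these passed (edgeR adjusted p = 0.382, 0.232, 0.177 and 0.677). Wild-type replicates 5 and 6 were also 2 of the 3 wild-type tumors with Y-linked genes near 0, and replicate 5 was muscle-rich, and their T cell scores of 3.06 and 3.69 were the highest of the wild-type tumors, where the others had 1.25 to 2.47. The part of sex, muscle and T cells in the Irf1 values was not tested beyond these fits.

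The feedback gene Socs1 (chromosome 16, 10782240 to 10785536) encodes an inhibitor that binds the catalytic domain of Jak kinases and is itself induced by interferon-gamma. It ranged from 14.3 through 21.9 to 25.2 CPM in wild-type tumors and from 18.7 through 26.6 to 46.8 CPM in Arf6-null tumors. Arf6-null replicates 2, 4, 5 and 6, at 26.4 to 46.8 CPM, were above every wild-type tumor, and replicates 1 and 3 were at 18.8 and 18.7 CPM, within the wild-type range. For Socs1 the log2 fold change was 0.45 (SE 0.22, 95% interval -0.04 to 0.94, edgeR adjusted p = 0.248), and it was 0.25 without Arf6-null replicate 4 (edgeR adjusted p = 0.495). The exact permutation test of mean log2 CPM gave p = 0.117 (two-sided, unadjusted).

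Socs3 (chromosome 11, 117966079 to 117970047) acts chiefly on the gp130 receptor of the IL-6 family and also blocks Jak kinases. It ranged from 60.04 through 109 to 182 CPM in wild-type tumors and from 107 through 174 to 340.4 CPM in Arf6-null tumors. Of the Arf6-null tumors, 5 were above the wild-type median and 3 above the highest wild-type tumor, with replicate 5 far above the rest. The log2 fold change of 0.67 (SE 0.31, 95% interval -0.01 to 1.35, edgeR adjusted p = 0.219) had the smallest unadjusted p of the 9 genes, 0.0526. By the exact permutation test of mean log2 CPM p was 0.0758 (two-sided, unadjusted). Without Arf6-null replicate 5 the value was 0.42 (edgeR adjusted p = 0.388), and the Y-linked score as a covariate gave 0.45.

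Genes of the IL-6 family and other inducers or partners of Socs3 were read beside it. Of 21, 18 were tested and edgeR called none, where it called 1.15% of all tested genes. Of the 18, 3 had an unadjusted edgeR p under 0.05, against 23.4% of all tested genes, and the median log2 fold change was 0.32. DESeq2 called Clcf1 higher and Cntfr, Il6st and Lep lower, and limma-voom called none. Over all genes with an adjusted p these tools called 11.8% and 6.14%. Cntfr and Lep are not among the 18, since they had too few counts for the edgeR filter. Their means were 0.996 and 0.262 CPM in wild-type and 0.108 and 0.0127 CPM in Arf6-null tumors. Clcf1, a cytokine of this family, had a wild-type mean of 46.3 ± 14.8 CPM and an Arf6-null mean of 99.7 ± 67.5 CPM (edgeR adjusted p = 0.114), with Arf6-null replicate 4 at 232 CPM. The shared receptor chain gene Il6st was at 226 ± 56.0 and 159 ± 23.9 CPM, and the receptor gene Lifr at 27.7 ± 6.66 and 17.8 ± 5.44 CPM (edgeR adjusted p = 0.0918 and 0.119). Arf6-null replicate 5, the tumor highest in Socs3, also had the highest Il6 (10.5 CPM against 0.298 to 3.36 in the others), Cebpd (496 against 50.5 to 336 CPM) and Junb (299 against 60.7 to 191 CPM), which were chosen after their values were seen. Its score of immediate early and heat shock genes was 6.22, the highest of the 12, where the others had 3.79 to 5.34. Of these 12 genes 11 had a positive log2 fold change, with a median of 0.44. edgeR called none of them, and 2 had an unadjusted edgeR p under 0.05, against 23.4% of all tested genes. DESeq2 called Dnajb1 higher and limma-voom called none. The part of these 12 genes in the Socs3 values was not tested.

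Ptpn2 (chromosome 18, 67665511 to 67724595), which encodes a phosphatase that dephosphorylates Jak1 and Jak3, ranged from 30.8 through 40.6 to 45.1 CPM in wild-type and from 38.5 through 43.5 to 55.0 CPM in Arf6-null tumors. Arf6-null replicates 4 and 5, at 52.7 and 55.0 CPM, lay above the wild-type range and the other 4 lay inside it. Ptpn2 had a log2 fold change of 0.23 (SE 0.13, 95% interval -0.05 to 0.51, edgeR adjusted p = 0.295), and with the skeletal muscle score as a covariate it was 0.38.

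**Figure D2:**
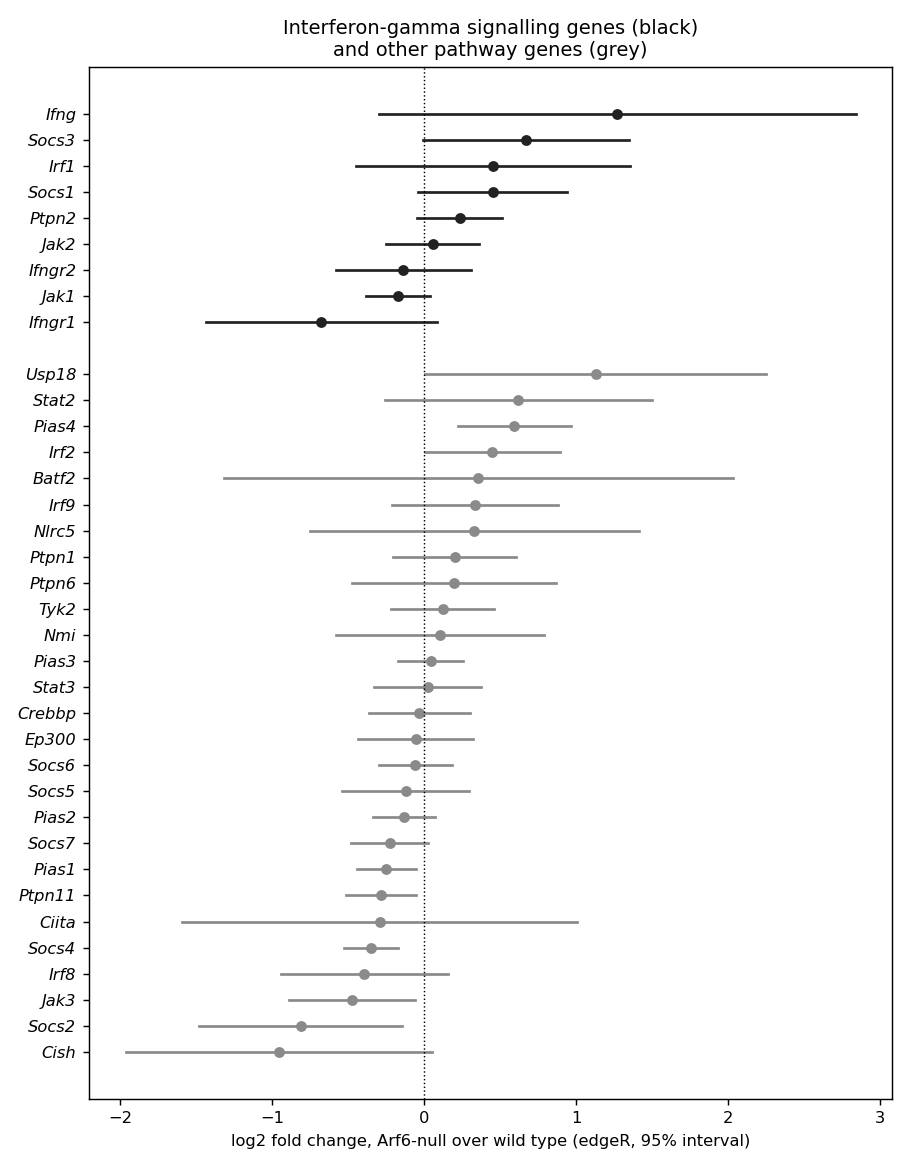
Log2 fold change, Arf6-null over wild type, from edgeR (points) with the 95% interval (lines) for the 9 genes (black) and 27 other pathway genes (grey). All 9 black intervals reach across 0, from the widest, Ifng at -0.30 to 2.84, to the narrowest, Jak1 at -0.38 to 0.03.

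Among 27 other genes of the pathway, edgeR called 0, with 8 at an unadjusted p under 0.05, against 23.4% of all tested genes. Their median log2 fold change was -0.032, with 13 positive and 14 negative. DESeq2 called Pias4 higher and Socs4 lower, and limma-voom called Usp18 higher and Socs4 lower. Over all genes with an adjusted p these tools called 11.8% and 6.14%. Socs4, a suppressor of cytokine signalling, spanned 36.9 to 43.8 CPM over wild-type and 26.9 to 34.3 CPM over Arf6-null tumors. It was the 1 gene of the 27 whose groups did not overlap, against 2.36% of all tested genes. Its estimate was -0.35 on the log2 scale (SE 0.082, adjusted p by edgeR 0.0566). Pias4, a SUMO ligase, was at 33.0 ± 3.49 and 49.8 ± 14.6 CPM, and its relative Pias1 at 54.5 ± 5.87 and 45.9 ± 3.89 CPM (edgeR adjusted p = 0.08 and 0.133).

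Response genes of interferon-gamma outside the MHC region had mostly positive estimates and no call. Of 31 tested genes, 28 had a positive log2 fold change, with a median of 0.66, while 47.2% of all tested genes were positive. edgeR called 0 and 4 had an unadjusted p under 0.05, against 23.4% of all tested genes. DESeq2 and limma-voom each called Apol9a and Upp1 higher, and over all genes with an adjusted p they called 11.8% and 6.14%. The ranges did not overlap for 1 of the 31, against 2.36% of all tested genes. Apol9a, an interferon-inducible gene with close relatives that reads could be split between, spanned 1.62 to 11.2 CPM over wild-type and 12.1 to 37.7 CPM over Arf6-null tumors without overlap (edgeR adjusted p = 0.0956). Upp1, uridine phosphorylase, was at 207 ± 133 and 431 ± 105 CPM, and Wars, tryptophanyl-tRNA synthetase, at 70.7 ± 25.03 and 124 ± 57.7 CPM (edgeR adjusted p = 0.108 and 0.138). The other gene with an unadjusted p under 0.05 had a negative estimate: Casp4, an inflammatory caspase, with a wild-type mean of 22.6 ± 10.3 CPM, an Arf6-null mean of 13.7 ± 4.92 CPM and a log2 fold change of -0.72 (SE 0.30, adjusted p by edgeR 0.174). It was chosen after its values were seen. These genes share a known inducer and are not independent of each other. Whether interferon-gamma or another inducer set their levels here was not tested. Their score per tumor was 3.49 to 4.41 in wild-type replicates 1 to 4, 6.61 and 5.89 in wild-type replicates 5 and 6, 4.61 in Arf6-null replicate 1 and 5.20 to 6.40 in the other Arf6-null tumors.

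**Figure D3:**
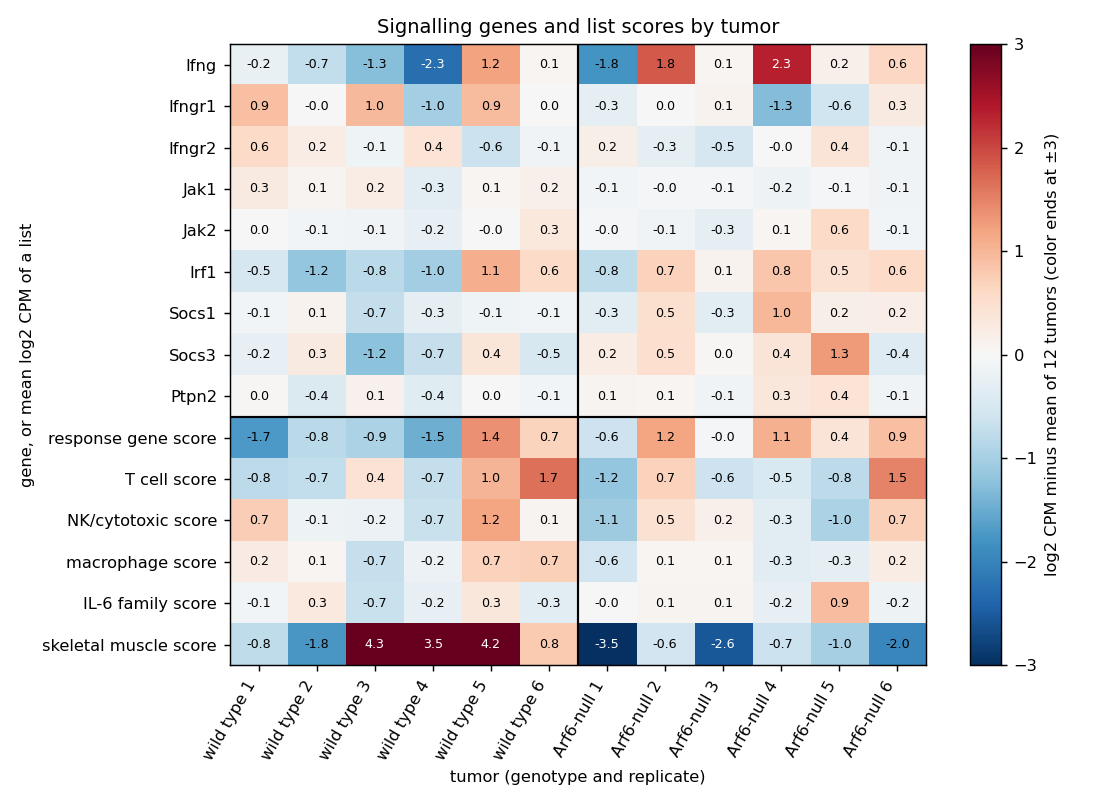
Log2 CPM minus the mean of the 12 tumors for the 9 genes (upper rows) and for the mean log2 CPM of 6 lists (lower rows), with tumors in columns and the genotypes parted by the vertical line. Wild-type replicates 5 and 6 share high Irf1 and response gene values with Arf6-null replicates 2, 4, 5 and 6. Arf6-null replicate 3 lies near the mean in both rows. Wild-type replicates 3, 4 and 5 stand out in the skeletal muscle row.

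The levels of ligand, response factor and feedback gene were compared within each genotype, in a family of 16 relations (8 pairs in 2 genotypes) on log2 CPM with exact two-sided permutation p adjusted over the family. In Arf6-null tumors Irf1 and Ifng ran together, with r = 0.94 (exact permutation p = 0.00139, adjusted 0.0222, n = 6) and Spearman's rho of 1 (exact permutation p = 0.00278, adjusted 0.0444), which are the smallest p that 6 tumors allow. Without Arf6-null replicates 1 and 4, the tumors farthest from the median Ifng, r was 0.77 over 4 tumors. In wild-type tumors the same pair had r = 0.85 and rho = 0.83 (exact permutation p = 0.0208 and 0.0583, adjusted 0.0667 and 0.133, n = 6), and r was 0.75 without replicates 4 and 5.

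Irf1 and the score of the response genes gave r = 0.95 and rho = 0.94 in Arf6-null tumors (exact permutation p = 0.00278 and 0.0167, adjusted 0.0222 and 0.0533, n = 6), and r = 0.81 without replicates 1 and 3. In wild-type tumors r was 0.89 and rho 0.49 (exact permutation p = 0.0389 and 0.356, adjusted 0.104 and 0.569, n = 6). Those tumors fell into a pair and a set of 4, and without replicates 5 and 6 r turned to -0.67, so the wild-type relation rested on these 2 tumors.

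Socs1 and Ifng in Arf6-null tumors had r = 0.89 and rho = 0.94 (exact permutation p = 0.0208 and 0.0167, adjusted 0.0667 and 0.0533, n = 6) and r = 0.81 without replicates 1 and 4, short of the threshold after adjustment. In wild-type tumors r was 0.45 and rho 0.37 (exact permutation p = 0.378 and 0.497, adjusted 0.504 and 0.663, n = 6), with r = 0.69 without replicates 4 and 5. Socs1 and Irf1 had r = 0.81 and rho = 0.94 in Arf6-null tumors (exact permutation p = 0.0486 and 0.0167, adjusted 0.111 and 0.0533), and r = 0.21 and rho = -0.14 in wild-type tumors (exact permutation p = 0.706 and 0.803, adjusted 0.79 and 0.856). Without the farthest 2 tumors r was 0.95 and -0.19. The difference between the genotypes in these values was not tested. Socs3 and Irf1 had r = 0.37 and rho = 0.31 in wild-type tumors (exact permutation p = 0.45 and 0.564, adjusted 0.554 and 0.694), and r = 0.14 and rho = 0.26 in Arf6-null tumors (exact permutation p = 0.740 and 0.658, adjusted 0.79 and 0.752), with r = -0.25 and -0.30 without the farthest 2. Ifng and the NK and cytotoxic score had r = 0.91 and rho = 0.94 in wild-type tumors (exact permutation p = 0.0153 and 0.0167, adjusted 0.0667 and 0.0533, n = 6), with r = 0.59 without replicates 4 and 5. In Arf6-null tumors that pair had r = 0.52 and rho = 0.49 (exact permutation p = 0.301 and 0.356, adjusted 0.482 and 0.569), with r = 0.49 without replicates 1 and 4. With the T cell score Ifng had r = 0.57 and rho = 0.43 in wild-type tumors (exact permutation p = 0.251 and 0.419, adjusted 0.447 and 0.61), and r = 0.47 and rho = 0.71 in Arf6-null tumors (exact permutation p = 0.340 and 0.136, adjusted 0.495 and 0.272), with r = 0.27 and 0.58 without the farthest 2.

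**Figure D4:**
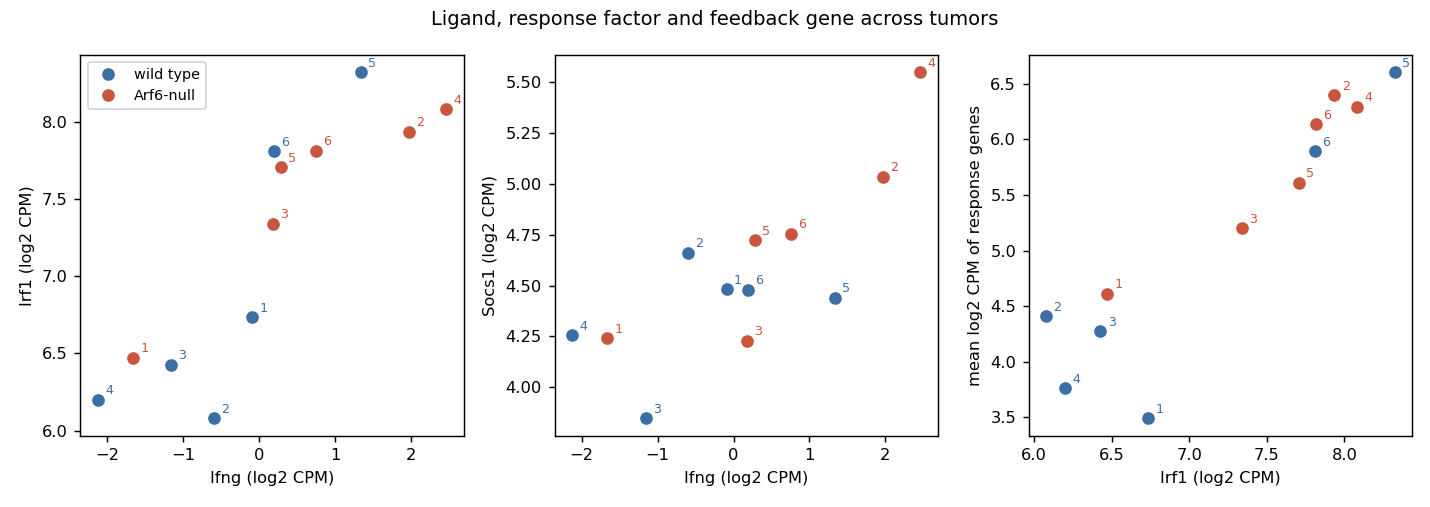
Log2 CPM of Irf1 against Ifng (left), of Socs1 against Ifng (middle) and mean log2 CPM of 31 response genes against Irf1 (right), 1 point per tumor with its replicate number, wild type in blue and Arf6-null in red. Arf6-null replicate 1 lies with the low wild-type tumors, and in the right panel 2 wild-type tumors, 5 and 6, lie with the Arf6-null tumors above 5 on the vertical axis.

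Genes with the pattern most like that of each of the 9 were taken by Pearson's r of log2 CPM over the 12 tumors after each genotype mean was subtracted, as a description. Ifng was nearest to Wars (r = 0.91), Psme2, a proteasome activator subunit (r = 0.88), and Uvrag (r = 0.87). Irf1 was nearest to Fgl2 (r = 0.96), Tapbpl, a relative of tapasin (r = 0.95), and Trim21, a cytosolic antibody receptor (r = 0.95). Socs1 was nearest to Acsl5 (r = 0.90), Klk8 (r = 0.89) and Coa4 (r = 0.88), and Socs3 to Atp6v1a (r = 0.92), Celsr3 (r = 0.92) and Optn (r = 0.92). Ifngr1 and Jak1 shared the zinc finger gene Zfp970 as their nearest (r = 0.90 and 0.89) and had r = 0.75 with each other. They were followed by Stk33 and Sytl3 for Ifngr1 (r = 0.86 and 0.85) and by Pcdhga7 and Eno1b for Jak1 (r = 0.88 and 0.86), and these last had r of -0.22 and -0.05 with Jak1 in the Arf6-null tumors taken alone. Ifngr2 was nearest to Pdgfa (r = 0.95), Col7a1 (r = 0.94) and Golga7 (r = 0.94), Jak2 to Galnt2 (r = 0.84), Aff1 (r = 0.83) and Foxk1 (r = 0.83), and Ptpn2 to Rhbdd2 (r = 0.91), Rtf1 (r = 0.90) and Ccnt2 (r = 0.90). All 12 libraries enter each value, so library quality and depth are shared between the genes compared.

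Per kilobase of exon, with levels as CPM per kilobase over the 12 tumors, Ifngr1 was highest at 77.6 ± 37.2, followed by Socs3 at 53.5 ± 25.2, Irf1 at 43.6 ± 21.9, Ifngr2 at 32.9 ± 8.27 and Jak1 at 30.3 ± 3.52. Lower levels were those of Ptpn2 at 13.4 ± 2.26, Jak2 at 12.9 ± 2.30, Socs1 at 8.46 ± 2.92 and Ifng at 1.22 ± 1.24 (SD, n = 12). Jak1 exceeded Ptpn2 and Socs1 exceeded Ifng in all 12 tumors, and Jak2 exceeded Socs1 in 11. Within the upper 5 and between Ptpn2 and Jak2 neighbours changed places between tumors, with the first of each pair higher in 7 to 9 of the 12. The genes also differed in how much they varied within a genotype. The pooled SD of log2 CPM was 1.33 for Ifng, 0.77 for Irf1, 0.69 for Ifngr1 and 0.58 for Socs3, near the median of all tested genes (0.37) for Socs1 at 0.41 and Ifngr2 at 0.38, and lower for Jak2 at 0.24, Ptpn2 at 0.22 and Jak1 at 0.15.

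**Figure D5:**
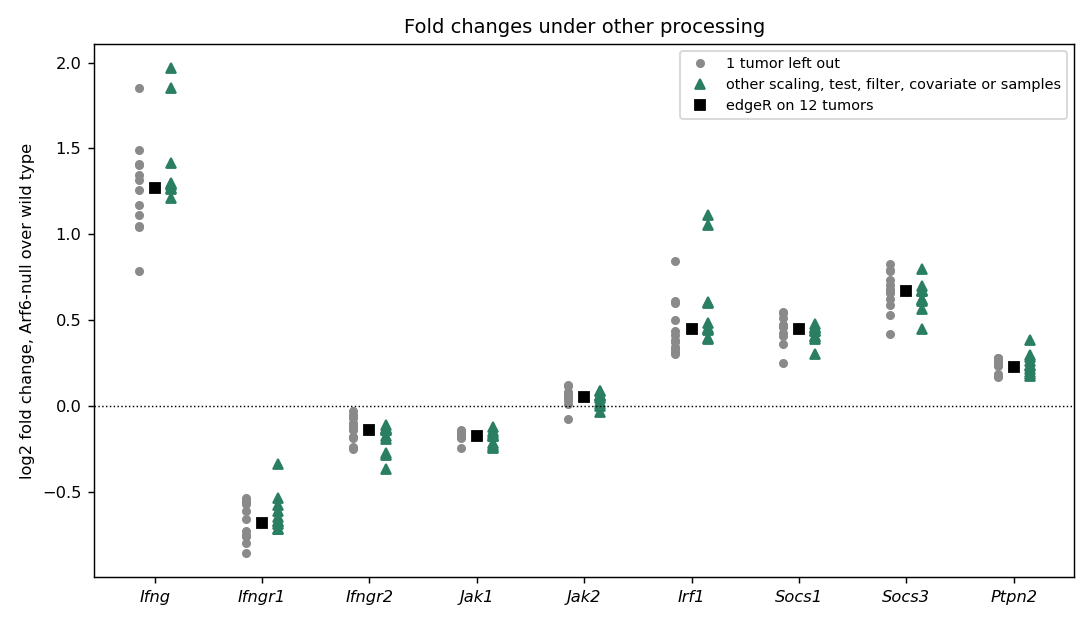
Log2 fold change of each gene, Arf6-null over wild type, by edgeR on 12 tumors (black squares), with 1 tumor left out (grey circles) and under the other scalings, tests, filters, covariates and sample sets (green triangles). Ifng and Irf1 move the most, up to 1.97 and 1.11, both with the skeletal muscle score as a covariate, and Jak2 is the gene with points on both sides of 0.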

How the data were processed

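The authors deposited 1 table of raw counts of reads per Ensembl gene, whole numbers without normalization. Per the submitters' processing notes, STAR 2.7.3a, featureCounts 1.6.3, DESeq2 1.26.0 and GRCm38 (mm10) were used; the strand setting was not given in the sources used here. Per the labels' protocols, libraries were TruSeq Stranded mRNA. No label says that each tumor is from its own animal, and p-values then reflect only the variation among these samples, part of which may be technical. Symbols, positions and exon lengths came from GENCODE M21 (GRCm38), and upstream sequences from RefSeq (GRCm38.p6), which held 8 of the 9 genes. Overlapping genes of Ifng, Jak1 and Irf1 had few counts.

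Genes were filtered with filterByExpr (minimum 10 counts), scaled by TMM and tested with edgeR 4.0.16 in R 4.3.3 (quasi-likelihood, robust), with Benjamini-Hochberg adjustment over all tested genes and a threshold of 0.05. No pair of libraries agreed within sampling noise (smallest chi-square per degree of freedom 93.1). For log2 CPM the prior count was 2. Named genes were the 9, Arf6, 5 relatives or neighbours, 3 genes by smallest p in each list (of the cell type and stress lists other than T and NK cells, counts and the genes some tool called), and the 3 nearest in pattern to each of the 9. A gene of the wider pathway list is not reported here and was left out of that list. The 9 genes and the lists were chosen with earlier results of these data known. Alternatives were other scalings, DESeq2 1.42.0, limma-voom (limma 3.58.1), other filters, thinned counts, Y-linked and muscle scores as covariates, and left-out tumors. Functions were tested on simulated data.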

Additional observations from a re-analysis of the deposited data

Results flagged for a closer look

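Among 46 sets of 6 values (depth, gene levels and list scores by genotype), 3 held a value whose gap to the nearest of the others was large for the range of the set. About 1 set in 20 does so by chance. Wild-type replicate 4 had a Jak1 level of 7.46 on the scale of log2(CPM + 1), below the remaining wild-type values of 7.84 to 8.03. Arf6-null replicate 5 had a score of 5.46 for the IL-6 family and Socs3 inducers, above a range of 4.30 to 4.63 for its group. Arf6-null replicate 4 had a melanocyte marker score of 1.17, below a range of 1.997 to 2.43 for its group. This score is the mean of the 3 tested markers of 10. The same tumor also had the highest Ifng and Socs1 levels of the 12, and a link between these values was not tested.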

How the results depend on the processing

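No paired analysis was possible because the series' design text calls the tumors matched but the labels give no replicate numbers and link no wild-type tumor with an Arf6-null one. None of the 9 genes passed the threshold under any of the 22 refits (21 for Ifng, which has too few counts for the filter of 10 CPM in 6 libraries), where the smallest adjusted p was 0.1 for Socs3 with limma-voom, or by the exact permutation test. Signs held for 8 genes, and Jak2 turned to -0.034 without the 3 muscle-rich wild-type tumors and ranged from -0.075 to 0.13 with 1 tumor left out. Ifnar2, near 0, turned to 0.024 with limma-voom, 0.011 without a filter and 0.079 with the Y-linked score, and ranged from -0.079 to 0.053 with 1 tumor left out.

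The numbers called over all genes, 95 higher and 91 lower, were 986 and 1255 with DESeq2, 513 and 483 with limma-voom, 14 and 17 with the Y-linked score, 5 and 15 with the muscle score, and 14 and 21 without the muscle-rich tumors. Lower calls were 55 without a filter and 59 at 10 CPM in 6 libraries. With 1 tumor left out, higher calls ranged from 13 (without wild-type replicate 6) to 388 (without wild-type replicate 2) and lower calls from 9 (without Arf6-null replicate 1) to 378 (without wild-type replicate 2). Upper-quartile scaling brought 1 of the other pathway genes, Socs4, past the threshold (edgeR adjusted p = 0.0436).

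Without the 2 tumors farthest from the median of the first measure, no test could pass over 4 tumors. Ifng with Irf1 and Irf1 with the response score kept r of 0.77 and 0.81 in Arf6-null tumors. In wild-type tumors r turned to -0.67 for Irf1 with the response score, to -0.19 for Irf1 with Socs1 and to -0.25 for Irf1 with Socs3, and in Arf6-null tumors to -0.30 for Irf1 with Socs3. The cause was not tested. With counts thinned to the smallest total the estimate of Ifng was 1.29, against 1.27.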

Other observations

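Genes next to Ifngr2 and Jak2 were read beside them. Ifngr2 lies on chromosome 16 near Ifnar2, Il10rb and Ifnar1, which encode other class II cytokine receptors. Ifnar1 and Ifnar2, the chains of the type I interferon receptor, had wild-type means of 106 ± 16.0 and 68.8 ± 12.2 CPM and Arf6-null means of 99.5 ± 7.61 and 67.7 ± 9.25 CPM (SD, n = 6 per group, edgeR adjusted p = 0.629 and 0.932). Il10rb, a chain shared by IL-10 family receptors, was at 41.4 ± 9.17 and 31.9 ± 3.60 CPM (edgeR adjusted p = 0.155), and the receptor genes Il10ra and Il20ra had log2 fold changes of -0.52 and -0.71 (edgeR adjusted p = 0.418 and 0.531). Of 10 class II receptor genes 7 were tested, with a median log2 fold change of -0.14 and none called by edgeR, DESeq2 or limma-voom. Only Il10rb had an unadjusted edgeR p under 0.05 among these 7, against 23.4% of all tested genes. Over all genes with an adjusted p these tools called 1.15%, 11.8% and 6.14%.

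Downstream of Jak2 on chromosome 19 lie Cd274 and Pdcd1lg2, which encode the ligands of the checkpoint receptor PD-1. Cd274 had a wild-type mean of 27.3 ± 33.4 CPM and an Arf6-null mean of 54.3 ± 33.1 CPM, and Pdcd1lg2 at 1.49 ± 1.16 and 3.03 ± 2.11 CPM (edgeR adjusted p = 0.433 and 0.299). Cd274 was 91.0 CPM in wild-type replicate 5, the tumor with the highest Irf1. It was 101 CPM in Arf6-null replicate 5, the tumor with the highest Jak2 and Socs3. Irf1 in that Arf6-null tumor was 209 CPM, inside its group's range of 88.7 to 271 CPM. In wild-type replicate 6, next highest in Irf1 and highest in Jak2 among wild-type tumors, Cd274 was 37.2 CPM. In wild-type replicates 1, 3 and 4 it was 6.04, 6.69 and 6.08 CPM. The tumors were picked by their values, and a relation of Cd274 with these genes was not tested.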
